A study of Mus musculus with 6 samples.

Results

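The genes described here are the neurotrophins and their receptors in mouse retinal ganglion cells (RGCs), the neurons whose axons form the optic nerve. They are the 7 rows of the deposited count table, of 24060 genes in all, whose symbols are Bdnf, Ntf3, Ntf5, Ntrk2, Ntrk3, Ngfr and Sort1. The rule that picks them uses the symbol alone, and the family was proposed with earlier results of these data known. RNA-seq had been run on RGCs from wild-type C57BL/6 mice at embryonic day 18 (E18; replicates 1, 3 and 4) and at postnatal day 5 (P5; replicates 6, 8 and 9), the ages between which RGCs lose much of their capacity for rapid axon growth. The retinas were dissociated with papain, macrophages were removed, and RGCs were held on dishes coated with an antibody against CD90, the product of Thy1. The animals carried no transgene and had no treatment, and the labels give neither the number of animals behind a sample nor a batch or date. Nothing says that the replicates came from separate animals or cultures, so p-values measure the spread between these samples.

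Neurotrophins are secreted growth factors that control the survival, axon growth and synapses of neurons. BDNF and NT4 (encoded by Ntf5) bind the receptor tyrosine kinase TrkB (Ntrk2), and NT3 (Ntf3) binds TrkC (Ntrk3). Neurotrophins, and with higher affinity their uncleaved precursors, also bind the p75 receptor (Ngfr), for which the sorting receptor sortilin (Sort1) is a partner. In the visual system, BDNF reaches RGCs both from their targets in the brain and from the retina, and it is a known survival factor for RGCs that signals through TrkB.

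Each sample had 81213639 to 114512853 counts on genes. Levels are given as CPM, read counts divided by the size of the library in units of 1e+06 reads, after scaling by the trimmed mean of M-values (TMM). The RGC marker Rbpms was at 293 ± 23.7 CPM in the E18 samples and 315 ± 21.5 CPM in the P5 samples (mean ± SD of 3 samples, as in all such pairs of values here). The 15 RGC markers together summed to 10194 to 11705 CPM at E18 and 10212 to 11325 at P5. Of these, 4 were called higher and 5 lower at E18, and 1 was under 1 CPM in every sample. RGC markers were thus abundant as a sum at both ages, which does not measure the purity of the samples. Markers of other retinal cells were also detected and are given further on. Thy1, the gene behind the selection antibody, was itself lower at E18, with 247 ± 56.2 CPM against 553 ± 120 (log2 fold change -1.16, adjusted p = 0.00197, edgeR). Fold changes are E18 over P5, so a negative value is higher at P5. They come from edgeR's quasi-likelihood test over the 16449 genes that passed its filter on low counts, with Benjamini-Hochberg adjustment over all of them and a threshold of 0.05. In these bulk samples, fewer cells of a type and less RNA per cell cannot be told apart.

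The promoter of Ngfr is shown because this gene had the clearest change of the family. It is the part of the RefSeq promoter entry that lies outside the gene as GENCODE annotates it, 213 bases at chr11:95587736-95587948 (GRCm38.p6, the mm10 build, minus strand), with each GC box (GGGCGG or CCGCCC, searched on both strands) in capitals.

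Ngfr upstream: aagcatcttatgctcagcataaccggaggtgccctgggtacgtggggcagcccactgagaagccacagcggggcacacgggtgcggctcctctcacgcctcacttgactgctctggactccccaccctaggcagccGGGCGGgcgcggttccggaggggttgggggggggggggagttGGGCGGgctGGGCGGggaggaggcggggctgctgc

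This stretch held 3 GC boxes and 70.9% G and C, and the whole 250 bases upstream of the RefSeq start site held 4 GC boxes and 70.4%. Over all 32851 RefSeq promoters of the build, the median G and C content of the 250 upstream bases was 52.4%, the 90th percentile was 69.2%, and 32.7% held a GC box. The match is a description of the sequence and says nothing of which factor is bound.

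Bdnf is shown for its calcium-response element, since the regulators of this gene are described further on. The gene has 7 annotated RefSeq start sites. Upstream of one of them, at chr2:109692387-109692416 (plus strand), lies an element close to the cyclic AMP response element TGACGTCA, here TCACGTCA, in capitals.

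Bdnf upstream: catatgacagcTCACGTCAaggcagcgtgg

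On both strands, the letters TCACGTCA occurred in 0.350% of all promoters and TGACGTCA in 1.55%. No annotated exon of Bdnf overlaps this window. RefSeq promoter entries were found for 4 of the 7 genes.

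The family did not move as a block between the ages. Of the 7 genes, 6 passed the filter and 4 passed the test. Ngfr was higher at E18, and Ntrk2, Ntrk3 and Ntf3 were higher at P5. Bdnf and Sort1 did not pass, and Ntf5 was too low to be tested. This makes 4 of 6 tested genes, where 43.4% of all tested genes passed, 20.8% higher and 22.5% lower at E18, but Ntf3 could enter the test only through its higher P5 counts, and nothing is read from so small a count. The median log2 fold change of the 6 genes was -0.23, against 0.00473 over all tested genes, with the same limit. The 3 samples of one age did not overlap with those of the other in 5 of the 6 tested genes, against 56.1% of all tested genes. Of the 5 genes, 1 was higher at E18 and 4 at P5, and the limit from Ntf3 applies here too. At least 2-fold changes were seen in Ngfr and Ntf3, while 15.9% of all tested genes passed the test and were changed at least 2-fold.

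**Figure D1:**
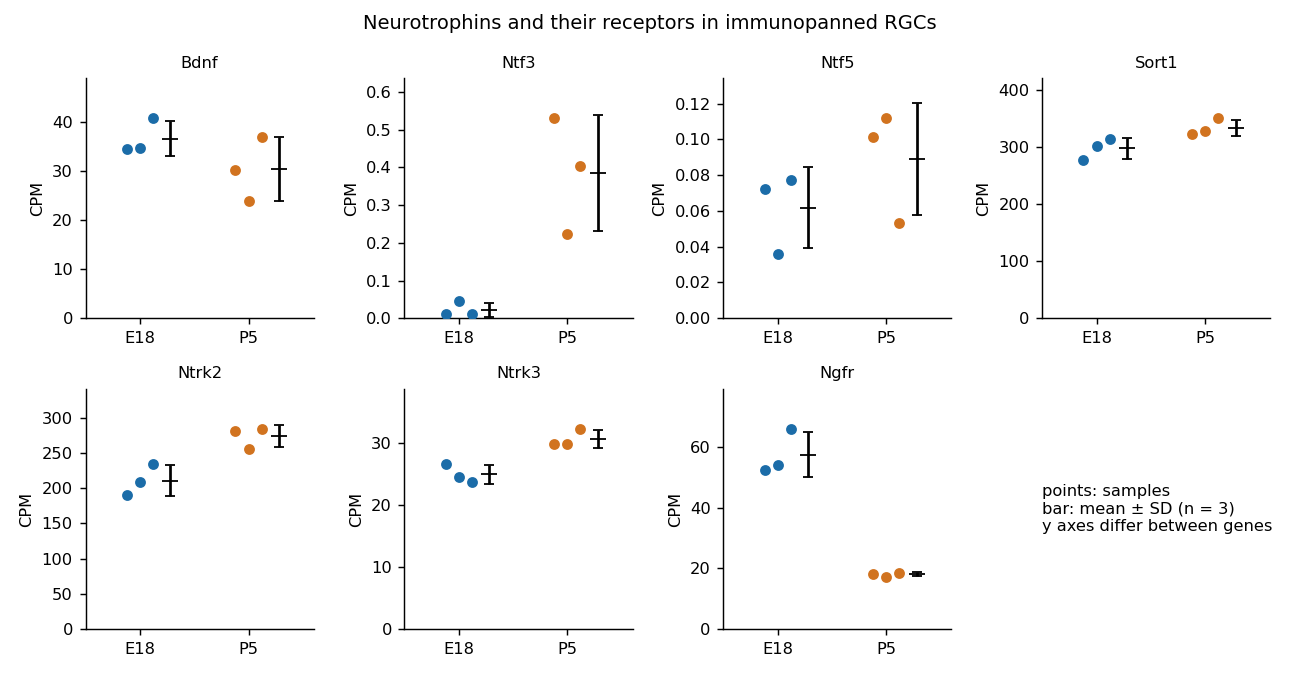
Level of each neurotrophin and receptor gene in every sample, in CPM from TMM-scaled libraries, with a separate y axis for each gene starting at 0. Points are samples and the bar is the mean with its SD (n = 3); Ngfr is at 52.5 to 66.1 CPM at E18 and 17.3 to 18.5 at P5, whereas the points of Bdnf and of Ntf5 overlap between the ages.

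Of the ligands, Bdnf (ENSMUSG00000048482.14, chromosome 2, 109674700 to 109727007, plus strand; all gene positions are in mm10) was by far the best detected. It had 34.4, 34.5 and 40.6 CPM in E18 replicates 1, 3 and 4, and 30.2, 23.9 and 36.9 CPM in P5 replicates 6, 8 and 9. The ages overlapped, since P5 replicate 9 lay above the 2 lower E18 samples. The means were 36.5 ± 3.56 and 30.3 ± 6.53 CPM (SD, n = 3 per age). The log2 fold change was 0.27 (standard error 0.159, 95% interval -0.09 to 0.63), which did not pass the test (adjusted p = 0.201, edgeR). The interval runs on the log2 scale from -0.09, a small excess at P5, to 0.63, an excess at E18. The exons of Bdnf share 896 bases with those of the antisense gene Gm45346, which has no row of its own in the table, and whether the counting used strand is not stated.

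Ntf3, the ligand of TrkC, was close to the floor at E18 and low at P5. It had 1, 5 and 1 counts in the E18 samples and 47, 22 and 38 counts in the P5 samples, in libraries of similar size. Every P5 sample thus lay above every E18 sample, and the lowest P5 sample had 22 counts against 5 in the highest E18 sample. In CPM this was 0.0121, 0.0446 and 0.0110 at E18 against 0.530, 0.223 and 0.404 at P5. Summed over samples, 7 counts at E18 stood against 107 at P5, and the ratio of P5 to E18 after scaling was 15.5, with an exact 95% interval of 7.28 to 39.6 that covers counting error alone. The fitted log2 fold change was -3.93 (standard error 0.604, 95% interval -5.30 to -2.55, adjusted p = 0.00156, edgeR), placing it 53rd from the lowest of all tested genes. Without E18 replicate 3 it was -4.90 (adjusted p = 0.00478, edgeR). Ntf3 passed the filter through its P5 samples alone, so a gene such as this could enter the test only by differing. Its position is chromosome 6, 126101412 to 126166910, minus strand (ENSMUSG00000049107.13).

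Ntf5, which encodes the other TrkB ligand NT4, was barely detected at either age. Its counts were 6, 4 and 7 at E18 and 9, 11 and 5 at P5, so the ages overlapped. The sums of 17 and 25 counts gave a scaled ratio of P5 to E18 of 1.49, with an exact counting interval of 0.775 to 2.95, and a difference was not detectable at this depth. Without the filter its log2 fold change was -0.53 (standard error 0.626, 95% interval -1.89 to 0.83, adjusted p = 0.540, edgeR). The gene lies on chromosome 7, 45413695 to 45417179, plus strand (ENSMUSG00000074121.3).

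Among the receptors, Ntrk2, the gene of TrkB, was abundant at both ages and modestly higher at P5. It had 190, 209 and 234 CPM at E18 and 282, 256 and 284 CPM at P5. All P5 samples lay above all E18 samples, with a gap between 234 in E18 replicate 4 and 256 in P5 replicate 8. The means of 211 ± 22.1 and 274 ± 15.7 (SD, n = 3 each) gave a log2 fold change of -0.38 (standard error 0.101, 95% interval -0.60 to -0.15, adjusted p = 0.0168, edgeR), or 1.30-fold higher at P5. The call was lost without E18 replicate 1 (-0.30, adjusted p = 0.0736) and without E18 replicate 3 (-0.36, adjusted p = 0.0675). The change was of middling size, since 48.4% of all tested genes had a smaller absolute fold change. The gene spans chromosome 13, 58806569 to 59133970, plus strand (ENSMUSG00000055254.15). It makes a full-length kinase receptor and truncated receptors without the kinase, and counts per gene cannot separate them.

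Ntrk3, the gene of TrkC, shifted by a similar amount. Its levels were 26.6, 24.4 and 23.7 CPM at E18 and 29.8, 29.8 and 32.2 CPM at P5. The ages did not overlap, and the highest E18 sample was replicate 1, which was the lowest in Ntrk2. The means of 24.9 ± 1.52 and 30.6 ± 1.39 (SD, n = 3 each) gave a log2 fold change of -0.30 (standard error 0.0990, 95% interval -0.52 to -0.07), with an adjusted p of 0.0393 (edgeR), or 1.23-fold higher at P5. This call stood close to the threshold. It was lost when any single library other than P5 replicate 8 was left out, with log2 fold changes of -0.34 to -0.26 and adjusted p-values of 0.0617 to 0.142. Like Ntrk2, this gene has full-length and truncated receptors that are counted together. It lies on chromosome 7, 78175959 to 78738012, minus strand (ENSMUSG00000059146.12).

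Ngfrap1 encodes a protein that binds p75 and averaged 153 ± 4.17 and 147 ± 9.46 CPM. The log2 fold change of 0.06 (95% interval -0.13 to 0.25) did not pass (adjusted p = 0.6002, edgeR) and turned to -0.0095 without P5 replicate 8.

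Other values of the cell preparations ran the same way as the receptors that were higher at P5. Thy1 was higher at P5 in every sample, and so was the summed level of 11 amacrine cell markers, at 1831 to 2045 CPM at E18 and 2374 to 2719 at P5. Most of these markers did not follow their sum. Of them, 5 were called higher and 2 lower at E18, and the median log2 fold change was 2.43. The summed level of 9 bipolar cell markers ran the other way, at 584 to 667 CPM against 305 to 379. Of these markers, 3 were called higher and 2 lower at E18, and 4 were under 1 CPM in every sample. The list shares Isl1 with the RGC list, so its sum is not of bipolar cells alone. None of the listed amacrine or bipolar cell markers was at 0 in all samples. The part of other cells in the levels of Ntrk2, Ntrk3 and Ntf3 was not tested.

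Ngfr, the gene of the p75 receptor, fell between the ages. Its levels were 52.5, 54.3 and 66.1 CPM at E18 and 18.31, 17.3 and 18.5 CPM at P5. The lowest E18 sample was far above the highest P5 sample, and the P5 samples spanned 17.3 to 18.5 CPM. The mean fell from 57.6 ± 7.38 to 18.03 ± 0.673 CPM (SD, n = 3 per age). This was a log2 fold change of 1.68 (standard error 0.116, 95% interval 1.41 to 1.94, adjusted p = 9.07e-05, edgeR), or 3.19-fold higher at E18. Of all tested genes, 93.0% had a smaller absolute fold change, and Ngfr stood 433rd from the highest. It passed the test in all 15 alternative fits, with log2 fold changes of 1.57 to 1.74. The gene lies on chromosome 11, 95568818 to 95587735, minus strand (ENSMUSG00000000120.6), directly below the upstream stretch printed above.

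Ngfr is also known from glia, pericytes and fibroblasts, so the markers of such cells are given beside it. The 10 Müller glia markers summed to 645, 609 and 497 CPM at E18 and 473, 512 and 471 at P5, which overlapped, with 4 of them called higher and 1 lower at E18. The 9 markers of Schwann cells, oligodendrocytes and their precursors summed to 72.0, 74.6 and 73.9 CPM at E18 and 52.5, 61.8 and 37.7 at P5, without overlap, with 1 called higher and 2 lower. For the 9 markers of endothelial cells and pericytes the sums were 72.5, 64.5 and 16.4 CPM at E18 and 14.9, 17.7 and 14.5 at P5, with 1 called higher and 3 lower at E18 and 5 of them under 1 CPM in every sample. E18 replicate 4 lay within the P5 samples in this sum.

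The 5 fibroblast markers summed to 1.54, 1.27 and 1.57 CPM at E18 and 0.936, 0.701 and 0.967 at P5, and 4 of them were under 1 CPM in every sample. The 14 markers of dividing cells summed to 358, 146 and 92.9 CPM at E18 and 78.0, 90.9 and 71.3 at P5, and 8 of them were called higher at E18. The 11 markers of microglia and macrophages summed to 4.66 to 5.18 CPM at E18 and 3.28 to 3.67 at P5, and the 5 astrocyte markers to 6.57 to 6.93 and 4.47 to 7.10. For the 12 photoreceptor markers the sums were 10.6 to 17.5 and 14.8 to 25.3 CPM. None of these markers was at 0 in all samples, but many were very low. Under 1 CPM in every sample were 9 of the microglia and macrophage, 7 of the photoreceptor and 2 of the astrocyte markers. So were 4 of the Schwann cell and oligodendrocyte lineage markers and 2 of the Müller glia markers. The part of any of these cells in the level of Ngfr was not tested.

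**Figure D2:**
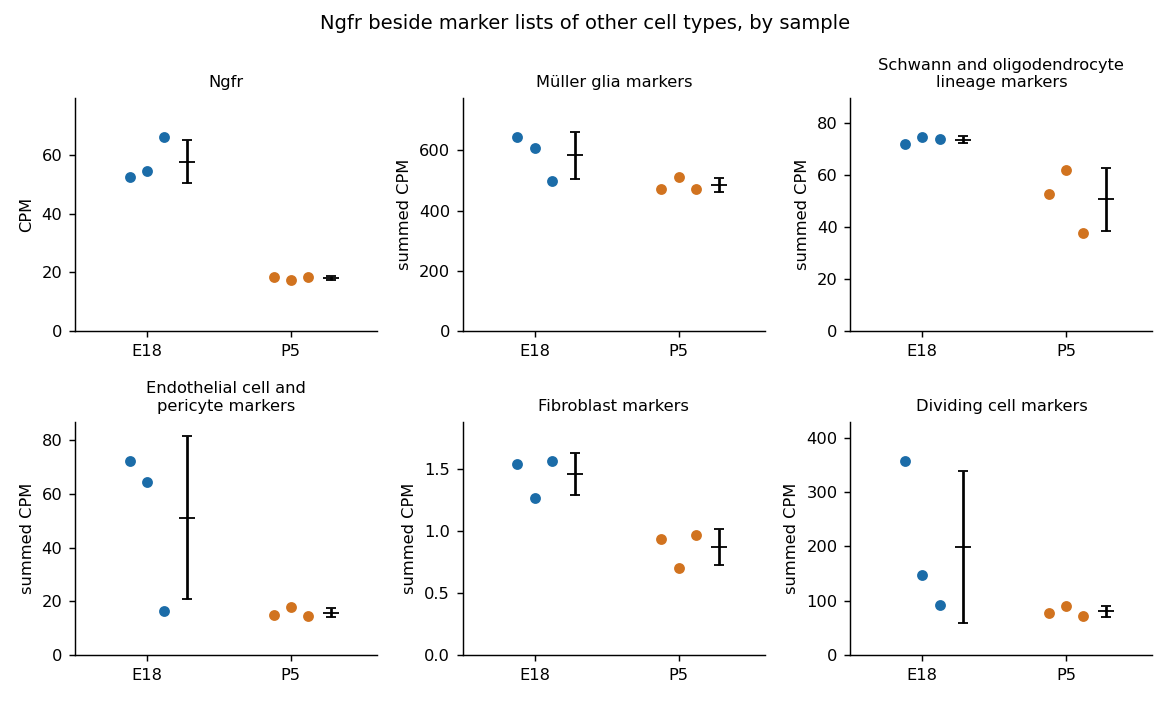
Ngfr in CPM and the summed CPM of 5 marker lists in each sample, y axes starting at 0 and differing between panels, with points for samples and the mean with its SD (n = 3) as a bar. At E18, Ngfr is at 52.5 to 66.1 CPM, the endothelial and pericyte sum at 16.4 to 72.5 CPM and the dividing cell sum at 92.9 to 358 CPM; the part of these cells in the Ngfr level was not tested.

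Sort1, the gene of sortilin, had the highest level per length of the family and differed little between the ages. Its levels were 277, 302 and 313 CPM at E18 and 322, 327 and 350 CPM at P5, without overlap between the ages. The means of 297 ± 18.14 and 333 ± 14.8 (SD, n = 3 each) gave a log2 fold change of -0.16 (standard error 0.0856, 95% interval -0.36 to 0.03), which did not pass the test (adjusted p = 0.153, edgeR). The interval excludes a difference of more than 0.36 on the log2 scale in favour of P5. Sort1 lies on chromosome 3, 108284082 to 108361511, plus strand (ENSMUSG00000068747.14), and its exons share 338 bases with the antisense gene Gm12523, which has no row in the table.

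**Figure D3:**
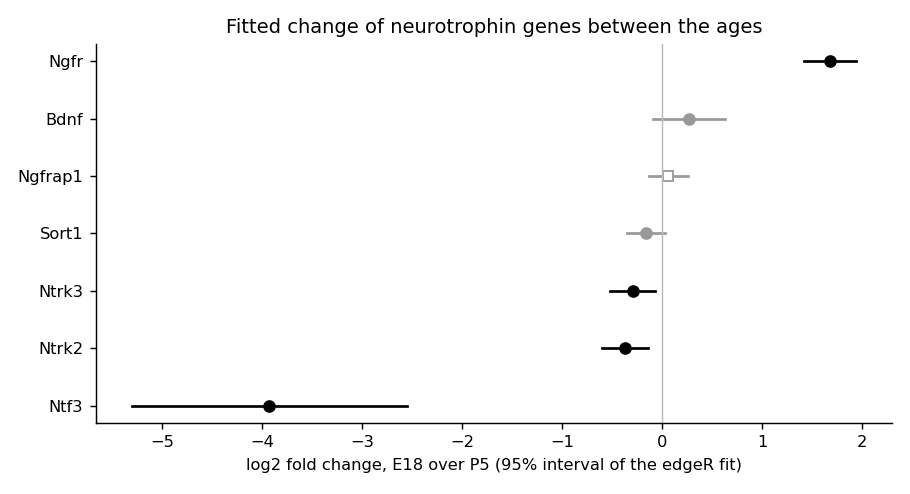
Fitted log2 fold change of E18 over P5 with its 95% interval, for the 6 tested genes of the set (circles) and for Ngfrap1 (open square), in black where the adjusted p was under 0.05 and in grey otherwise. Ngfr alone lies to the right of 0 with its whole interval (1.41 to 1.94), and the intervals of Ntrk2 and Ntrk3 end at -0.15 and -0.07.

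Ratios of read counts within a sample need no scaling between libraries, and 4 were compared. The ratio of Ngfr to Ntrk2 was 0.276, 0.260 and 0.282 at E18 and 0.0650, 0.0675 and 0.0652 at P5. It was tight within each age and differed by 2.05 on the log2 scale between them. The ratio of Ngfr to Sort1 was 0.189, 0.180 and 0.211 at E18 and 0.0568, 0.0528 and 0.0530 at P5, a log2 difference of 1.83. Relative both to the Trk receptor and to its sorting partner, Ngfr thus held a larger share at E18 in each of the 3 samples. Both ratios come from the same counts as the fold changes above and add no independent result.

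The ratio of Bdnf to Ntf3 was 2855, 774 and 3680 at E18 and 57.0, 107 and 91.4 at P5, a log2 difference of 4.61 that rests on the 7 Ntf3 counts at E18. Without E18 replicate 3, which holds 5 of these counts, it was 5.30, and over all samples left out singly it was 4.18 to 5.30. For each of these 3 ratios the exact two-sided permutation test gave p = 0.1, the smallest that 3 samples against 3 can reach, and 0.133 after adjustment over the 4 ratios. The ratio of Ntrk2 to Ntrk3 overlapped, with 7.15, 8.54 and 9.89 at E18 and 9.46, 8.59 and 8.83 at P5. Its log2 difference was -0.08 (exact permutation p = 0.7, adjusted 0.7), and the sign turned to 0.0377 without E18 replicate 1.

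Levels of different genes are comparable only per length, so CPM were divided by the kilobases of annotated exon. These lengths pool the GENCODE exons of all transcripts of a gene, while reads were counted over RefSeq genes. The exons measured and the exons counted may thus differ, and the order is approximate. At E18 the order was Sort1 (39.3 CPM per kilobase), Ngfr (16.7), Ntrk2 (10.9), Bdnf (5.88), Ntrk3 (0.825), Ntf5 (0.0233) and Ntf3 (0.0132). Here Ntf5 and Ntf3 could not be ordered, since their samples overlapped, while the other neighbours did not overlap. At P5 the order was Sort1 (44.0 CPM per kilobase), Ntrk2 (14.2), Ngfr (5.23), Bdnf (4.88), Ntrk3 (1.01), Ntf3 (0.225) and Ntf5 (0.0335). Ngfr and Bdnf overlapped at P5 and no other neighbours did.

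Ngfr and Ntrk2 therefore exchanged places between the ages on this scale, at 16.7 ± 2.14 and 10.9 ± 1.14 CPM per kilobase of exon at E18, and 5.23 ± 0.195 and 14.2 ± 0.811 at P5. Their order at E18 depends on the length used. Ntrk2 and Ntrk3 have long annotated exons, of 19.3 and 30.2 kilobases against 3.45 for Ngfr. Per kilobase of coding sequence, Ntrk2 stood above Ngfr at both ages, with 79.3 against 45.0 CPM at E18 and 103 against 14.1 at P5.

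The genes whose pattern over the 6 samples lay nearest to each well expressed gene were sought among 11029 tested genes of at least 5 CPM, by the root mean square difference of log2 CPM centred on each gene's mean. Nearest to Ngfr was Vegfa, a vascular growth factor, at 0.0622 on the log2 scale, with mean levels of 162 CPM at E18 and 49.5 CPM at P5. Pfkl, a phosphofructokinase of glycolysis, followed at 0.139, with 324 and 116 CPM. Vegfa was the 1 gene within 0.1 of Ngfr. For Ntrk2, the nearest were Ankrd46 (0.0322) and Ndp (0.0328), with 505 genes within 0.1.

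The flatter genes had many such neighbours, with 386 genes within 0.1 for Ntrk3, led by Ipp (0.0197) and Ifngr1 (0.0359). Sort1 had 1016, led by Mrps24 (0.0169) and Tmem229b (0.0205). Bdnf had 28, led by Mpnd (0.0576) and Dbnl (0.0609). These values describe 6 samples that share 2 ages, and many genes follow the same shift.

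The wider pathway was described by 6 lists of genes. They hold 126 genes, of which 125 were tested, and 35 were higher and 35 lower at E18, or 56.0% against the 43.4% of all tested genes. The changes thus ran in both directions.

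Of 21 partners of p75 and relatives of sortilin, 7 were higher and 5 lower at E18 (57.1% called, against 43.4% of all tested genes). The median log2 fold change was 0.13. The largest change was in Sorcs3, a member of the sortilin family, with 2.93 ± 0.444 CPM in E18 and 29.7 ± 9.43 CPM in P5 samples (log2 fold change -3.35, standard error 0.243). Sorl1, another member, was also higher at P5, with 40.7 ± 5.51 against 106 ± 24.8 CPM (-1.38, standard error 0.176). In contrast, Traf6 and Traf4, adaptors that bind the intracellular part of p75, were higher at E18. Traf6 had 33.0 ± 6.32 against 10.5 ± 2.39 CPM (1.66, standard error 0.201), and Traf4 had 109 ± 3.57 against 37.2 ± 14.1 CPM (1.55, standard error 0.234). The adjusted p-values of these 4 genes were 9.81e-05 to 0.00144 (edgeR).

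Of the 14 genes of proneurotrophin processing and release, Mmp7 had too few counts to be tested. Among the other 13, 2 were higher and 6 lower at E18 (61.5% called, against 43.4% of all tested genes). The median log2 fold change was -0.29. The prohormone convertases Pcsk2 (40.2 ± 1.45 against 98.7 ± 22.1 CPM, log2 fold change -1.30) and Pcsk1 (10.2 ± 0.941 against 20.9 ± 5.45 CPM, -1.03) were higher at P5. So was Serpine2, an inhibitor of plasminogen activators, with 14.2 ± 1.64 against 51.5 ± 14.8 CPM (-1.86). Mmp2, a matrix metalloproteinase, was higher at E18, with 23.6 ± 2.23 against 12.5 ± 3.37 CPM (0.91). Their standard errors were 0.152 to 0.206 and their adjusted p-values 0.000435 to 0.00604 (edgeR).

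The 43 adaptors and kinases below the Trk receptors held 14 genes higher and 6 lower at E18, while 23 did not pass. The share called was near that of all tested genes, at 46.5% against 43.4%, and the median log2 fold change was 0.11. The docking protein Gab1 had 22.5 ± 1.32 CPM at E18 and 8.18 ± 4.09 at P5 (1.46, standard error 0.307), and Plcg1, the phospholipase that binds activated Trk receptors, 233 ± 7.16 and 131 ± 22.9 (0.84, standard error 0.124). The Shc adaptors Shc3 and Shc4 were higher at P5. Shc3 had 5.76 ± 0.396 against 13.3 ± 0.383 CPM (-1.21, standard error 0.126) and Shc4 had 8.82 ± 1.28 against 15.4 ± 2.15 CPM (-0.81, standard error 0.158). The adjusted p-values were 0.000355 to 0.00596 (edgeR). Without E18 replicate 3, 13 genes of this list passed the test in place of 20.

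Of 18 genes of the signalling endosome, which carries active Trk receptors along the axon, 2 were higher and 8 lower at E18. This was 55.6% called, against 43.4% of all tested genes, with a median log2 fold change of -0.26. Higher at P5 were Rab5b, a GTPase of early endosomes (133 ± 8.45 against 211 ± 24.5 CPM, -0.67), Usp8, a deubiquitinase (55.7 ± 0.311 against 86.6 ± 10.1 CPM, -0.64), and Hap1, a transport adaptor (15.1 ± 1.74 against 34.6 ± 13.2 CPM, -1.20). Dnm1, the neuronal dynamin, had 83.1 ± 7.84 against 124 ± 27.4 CPM (-0.58) and lost its call without E18 replicate 3 (-0.50, adjusted p = 0.0674, edgeR). Standard errors were 0.102 to 0.265 and adjusted p-values 0.00178 to 0.0161 (edgeR) in the fit of all samples.

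Of 17 genes that regulate the transcription of Bdnf, 6 were higher and 6 lower at E18 (70.6% called, against 43.4% of all tested genes). Over all tested genes, 20.8% were higher and 22.5% lower. The list had a median log2 fold change of 0.02. Neurod2, a neuronal transcription factor, rose from 1.14 ± 0.201 to 17.8 ± 4.67 CPM at P5 (-3.96, standard error 0.240). Camk4, a calcium-dependent kinase that phosphorylates CREB, which binds elements such as the one printed above, had 88.6 ± 2.62 against 387 ± 12.3 CPM (-2.13, standard error 0.0821). Npas4, an activity-induced transcription factor, had 9.40 ± 1.73 against 23.9 ± 3.05 CPM (-1.35, standard error 0.166). Rest, a repressor of neuronal genes, was higher at E18, with 17.1 ± 4.18 against 7.22 ± 3.16 CPM (1.24, standard error 0.304). The adjusted p-values were 1.12e-05 to 0.0115 (edgeR), and the call of Rest was lost without P5 replicate 6 (1.14, adjusted p = 0.0586).

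Among 13 genes known to respond to Trk signalling, 4 were higher and 4 lower at E18 (61.5% called, against 43.4% of all tested genes). The median log2 fold change was -0.18. Dusp6, a phosphatase induced by and acting on ERK kinases, had 63.9 ± 6.66 CPM at E18 and 16.8 ± 7.06 at P5 (1.93, standard error 0.296), and the transcription factor gene Junb 29.4 ± 5.53 and 12.5 ± 3.74 (1.23, standard error 0.230). The neuronal genes Nptx2 (27.7 ± 4.49 against 104 ± 21.8 CPM, -1.91, standard error 0.174) and Vgf (24.4 ± 7.01 against 46.1 ± 4.45 CPM, -0.92, standard error 0.199) were higher at P5. Adjusted p-values were 0.000228 to 0.00693 (edgeR). Immediate-early genes such as Junb are also known to respond to tissue dissociation, which all 6 samples underwent.

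**Figure D4:**
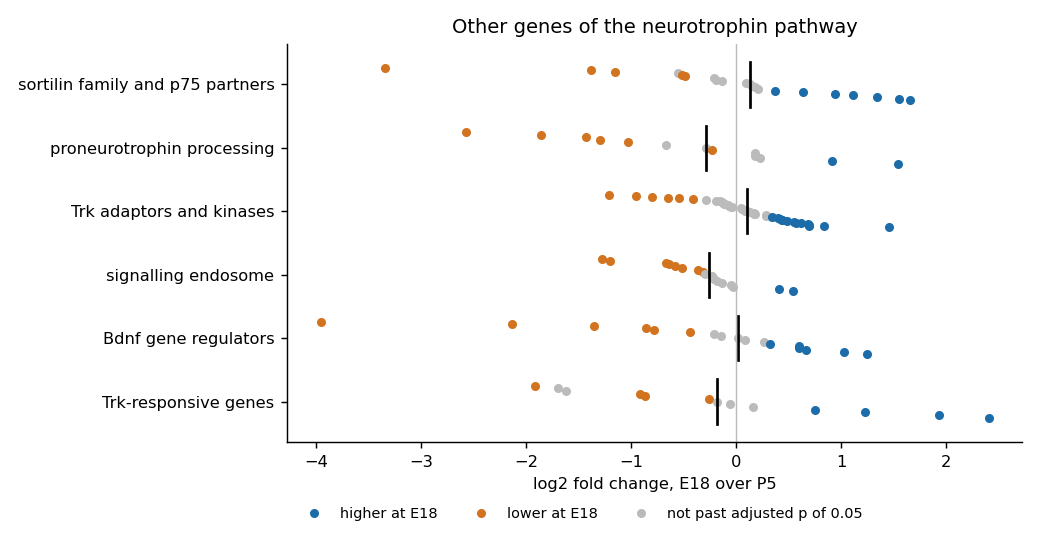
Log2 fold change of E18 over P5 for the tested genes of 6 lists of the neurotrophin pathway, with 1 point per gene, coloured by direction where the adjusted p was under 0.05 and grey otherwise, and a black bar at the median of each list. Every list holds genes that passed in both directions, and the medians stay between -0.29 and 0.13.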

How the data were processed

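RNA from immunopanned RGCs was sequenced in 3 E18 and 3 P5 samples. The authors made libraries after ribosomal RNA depletion (the labels also name polyA RNA), aligned paired-end reads to mm10 with STAR and used HT-seq to count them over RefSeq genes. Base calling with CASAVA 1.8.2 and edgeR are named in the submitters' processing notes. Strand setting and handling of multiply mapped reads are not given in the sources used here. How reads from overlapping genes were assigned is thus not known. The authors deposited raw counts per gene and sample, and these alone were used. The normalized counts that the authors deposited are a signal scaled for library size. The deposited columns of log2 fold changes, of p-values with false discovery rates and of a rank score hold the authors' own comparison and were not used.

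E18 replicate 1 has the numbers 2 and 5 in its column name too, and whether it pools preparations is not stated. Counts were scaled by TMM and tested in edgeR 4.0.16 (R 4.3.3; quasi-likelihood, filterByExpr, Benjamini-Hochberg) on 16449 genes. Standard errors and intervals of fold changes belong to that fit. With 81213639 to 114512853 counts per sample and a chi-square per degree of freedom of 26.0 to 121 between replicates, precision depends on the spread between samples for all but the lowest genes, whose exact intervals cover counting error only. The test was tried first on simulated counts. Exon and coding lengths come from the GENCODE annotation of mm10 and sequences from RefSeq. Genes were named by a fixed rule: the 7 members, genes of lists of 5 or fewer, up to 4 genes per pathway list with the largest absolute change (called, without overlap, at least 5 CPM), the 2 nearest patterns per member, and Rbpms and Thy1. Some genes under this rule are left unreported. Members and lists were chosen with earlier results of these data known. Alternatives were DESeq2 1.42.0, limma-voom (limma 3.58.1), edgeR's exact and likelihood ratio tests, other normalizations and filters, and leaving out each sample.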

Additional observations from a re-analysis of the deposited data

How the results depend on the processing

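Of the 7 genes, Ngfr passed in all 15 alternatives (1.57 to 1.74). Ntf3 passed in all 14 that gave a value (-4.90 to -3.62), since it could not be fitted with a filter of at least 1 CPM in 3 samples. It entered the fits with a filter on low counts through its P5 samples alone, so its calls in those fits add no support. Bdnf (0.10 to 0.43, adjusted p of 0.0507 to 0.493, edgeR and other tools) and Sort1 (-0.20 to -0.11, 0.0727 to 0.441) passed in none. Ntrk2 kept its direction and passed in 13 of 15, with -0.46 to -0.30 when single samples were left out. Ntrk3 passed in 8 of 15. It was -0.29 with upper-quartile normalization (adjusted p = 0.0516) and -0.29 without a filter (adjusted p = 0.0631), and -0.34 to -0.26 without single samples. The number of the 7 genes called was thus 2 to 4 when single samples were left out, Ntf3 and Ngfr being the 2 called without E18 replicate 1 or 3. Leaving out samples gave 4575 to 8796 calls over all genes (4575 without E18 replicate 3, against 7135) and 13 to 27 among the Trk adaptors and kinases. The log2 difference of the Ntrk2 to Ntrk3 ratio ran from -0.20 to 0.0377, the latter without E18 replicate 1, and Ngfrap1 turned to -0.0095 without P5 replicate 8. Per kilobase of coding sequence in place of exon, the means of the 6 samples were 38.4 for Bdnf, 0.251 for Ntf3, 0.120 for Ntf5, 91.1 for Ntrk2, 9.49 for Ntrk3, 29.5 for Ngfr and 122 for Sort1, against 5.38, 0.119, 0.0284, 12.6, 0.919, 10.98 and 41.6 CPM per kilobase. The cause of the lost calls was not tested, beyond the smaller number of samples in the fits that left one out. No paired analysis was possible because the ages share no replicate number. Depth limits Ntf5, and Ntf3 at E18, both at a few counts.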
